A study of Mus musculus with 2 samples.

Results

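The mitochondrial SLC25 carriers are nuclear-encoded proteins that move metabolites, nucleotides and cofactors across the inner mitochondrial membrane. Here they were taken by name, as protein-coding mouse genes in the RefSeq annotation of mm10 (assembly GRCm38.p6) with a symbol of Slc25a and a number, together with the uncoupling protein genes Ucp1, Ucp2 and Ucp3. The values below are for 49 genes of the 21000 protein-coding genes examined, of which 46 were Slc25a genes and 3 were uncoupling protein genes. They lay on 19 chromosomes, so they do not form 1 cluster in the genome. The list follows gene names and not location in the cell. Slc25a17 is known as a carrier of peroxisomes and Slc25a46 as a protein of the outer mitochondrial membrane.

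NRF1, nuclear respiratory factor 1, was mapped by chromatin immunoprecipitation followed by sequencing (ChIP-seq) in skeletal muscle of wild-type mice, and the question addressed here is at which carrier promoters it was found. The labels give 2 libraries, both of wild-type skeletal muscle with the NRF1 antibody, with no treatment and no age, and the methods of the study describe male mice on a C57Bl/6J background. The reporting summary of the study lists the library of replicate 2 as input DNA, against its label. A single list of 3226 peaks was deposited, with every peak named after the library of replicate 1, so there were no groups to compare and no error between replicates for any value below. By the methods the limit on the false discovery rate was 0.01, whereas 7 peaks of the list had a higher q, up to 0.048, so the list may not be the one that the study counted. A whole muscle also holds nuclei of vessel, connective tissue and satellite cells, and a peak cannot be assigned to myofibres.

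SLC25 carriers share a fold of repeated membrane-spanning units and mostly work as exchangers, passing 1 substrate in for another out. In muscle the ADP/ATP carrier and the phosphate carrier supply the ATP synthase, while other members carry the intermediates of the citric acid cycle, amino acids, acylcarnitines and the cofactors of mitochondrial enzymes. NRF1 binds GC-rich palindromes close to the starts of genes and is best known for its sites at genes of the respiratory chain and of mitochondrial upkeep.

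NRF1 peaks were found at the promoters of 5 of these 49 carrier genes. These were Slc25a3, the phosphate carrier, Slc25a10, the dicarboxylate carrier, Slc25a11, the oxoglutarate carrier, Slc25a32, a carrier of folate and flavin adenine dinucleotide (FAD), and Slc25a51, the nicotinamide adenine dinucleotide (NAD) carrier. A promoter ran from 1000 bp before to 100 bp after any annotated start of the gene, and it counted as having a peak when the summit, the position of strongest signal, lay inside. The share was 10.2% (Wilson 95% interval 4.44 to 21.8%, which covers counting error over genes only), against 13.4% of all protein-coding genes (2808 of 21000). The interval contains the share of all genes, so the carriers could not be told apart from protein-coding genes at large by how often their promoters held a peak.

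The sequences under these peaks are shown because they differ in how closely they match the sequence that NRF1 prefers. The most frequent 10-base palindrome within 50 bp of the summits of the whole list was GCGCATGCGC, present at 305 of 3226 peaks, and it is called the motif below. Each carrier line gives the best match within 100 bp of the summit in capitals, with 10 reference bases on either side, read 5′ to 3′ on the strand of the gene from the GRCm38.p6 sequence of RefSeq. The windows are chr10:91124162-91124191 (minus strand) for Slc25a3, chr11:120491864-120491893 (plus) for Slc25a10, chr11:70646999-70647028 (minus) for Slc25a11, chr15:39112736-39112765 (minus) for Slc25a32 and chr4:45408737-45408766 (minus) for Slc25a51.
Slc25a3: ctttggatctGCGCCTGCGCagtaggaatc
Slc25a51: ggaccagtctGCGCCTGCGCgggcgcgggc
Slc25a10: ggctgcgcggGCGCATTGGCtgtaccgggc
Slc25a11: tttgcgctccGAGCCTGCGCccgccccagc
Slc25a32: acccgagggcGAGCGCGCGCagctgtgggc

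Slc25a3 and Slc25a51 carried the same 10 bases, with 1 mismatch to the motif. The best matches of Slc25a10 and Slc25a11 had 2 mismatches, and that of Slc25a32 had 3. With both strands searched out to 100 bp from the summit, a copy with at most 1 mismatch was thus present in 2 of 5 carrier peaks (40%, Wilson 95% interval 11.8 to 76.9%), against 65.9% of all promoter peaks (1719 of 2607). The interval contains the share of all promoter peaks. An exact copy was in 0 of the 5 carrier peaks (upper bound of the Wilson 95% interval 43.4%) and in 10.9% of all promoter peaks.

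The tallest carrier peak was that of Slc25a32 on chromosome 15 (gene ID 69906, minus strand, peak at chr15:39112616-39112877). Slc25a32 brings folate and FAD into mitochondria, where they serve 1-carbon metabolism and flavoenzymes. The peak was 262 bp wide and had a fold enrichment, that is, how many times the summit signal exceeded the background of the control, of 16.8 and a −log10 q of 43.7. By fold enrichment it ranked 592 of 2607 promoter peaks. Its summit lay 25 bp before the start. The best match, centred 9.5 bp from the summit, had 3 mismatches, so the tallest of the carrier peaks was over the poorest match among them. Over all promoter peaks the median fold enrichment was 14.3 with an exact copy (285 peaks), 12.7 with 1 mismatch (1434 peaks), 9.10 with 2 (653 peaks) and 7.51 with 3 or more (235 peaks). Slc25a32 was therefore above the median of every class, although its own class had the lowest.

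The 120 bases before the start of Slc25a32, chr15:39112717-39112836 on the minus strand, are shown because they hold the summit of this peak with no close copy of the motif. Capitals mark the only occurrence of the 5-base element TGCGC, one arm of the motif palindrome, here in its reverse form GCGCA.
Slc25a32: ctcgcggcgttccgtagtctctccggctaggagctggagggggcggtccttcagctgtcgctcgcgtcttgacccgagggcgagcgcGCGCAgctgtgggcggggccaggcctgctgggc

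Slc25a51 on chromosome 4 (gene ID 230125, minus strand, peak at chr4:45408541-45408860) had the second tallest peak. Its product imports NAD, the electron carrier that links the citric acid cycle to complex I. The peak was the widest of the 5, at 320 bp, with a fold enrichment of 15.6 and a −log10 q of 35.0, and it ranked 732 of 2607. The summit lay 27 bp after the start, in an untranslated exon, and 12.5 bp from the copy with 1 mismatch. Slc25a51 was the only carrier with a copy of at most 1 mismatch within 50 bp of the summit.

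The other 3 carrier peaks were below the median fold enrichment of all promoter peaks. Slc25a3 on chromosome 10 (gene ID 18674, minus strand, peak at chr10:91123986-91124252) delivers the phosphate used to make ATP. Its peak had a fold enrichment of 7.84 and a −log10 q of 19.1, ranking 1972 of 2607. The summit lay 131 bp before the start, the farthest of the 5, and the copy with 1 mismatch was centred 78.5 bp from the summit, farther upstream at 209.5 bp before the start. The distance depended on the annotation, since the same summit was 52 bp before the nearest start when predicted RefSeq transcripts were added and 39 bp before it with GENCODE transcripts. With GENCODE transcripts the farthest summit was that of Slc25a11, 69 bp after the start.

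Slc25a10 on chromosome 11 (gene ID 27376, plus strand, peak at chr11:120491758-120491988) exchanges malate and succinate for phosphate. Its fold enrichment was 7.29 and its −log10 q 11.8, the lowest −log10 q of the 5, ranking 2084 of 2607 by fold. The summit lay 43 bp after the start in an untranslated exon, and the best match, with 2 mismatches, was centred 1.5 bp from the summit. Slc25a11, also on chromosome 11 (gene ID 67863, minus strand, peak at chr11:70646895-70647112), carries oxoglutarate out against malate in the malate-aspartate shuttle. It had the lowest fold enrichment of the 5, at 6.53, with a −log10 q of 13.4, ranking 2229 of 2607. Its summit lay 50 bp after the start in an untranslated exon, 24.5 bp from the best match.

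Over the 5 peaks the fold enrichment ranged from 6.53 to 16.8 with a median of 7.84, and over all 2607 promoter peaks from 3.01 to 49.9 with a median of 11.1 (quartiles 7.90 and 16.4). The median −log10 q was 19.1 for the carriers and 25.3 for all promoter peaks, and the median width was 262 bp and 296 bp. Thus 3 carrier peaks were below the median fold of promoter peaks and 2 above it. Among all promoter peaks the percentiles ran from 14.5 for Slc25a11 to 77.3 for Slc25a32.

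**Figure D1:**
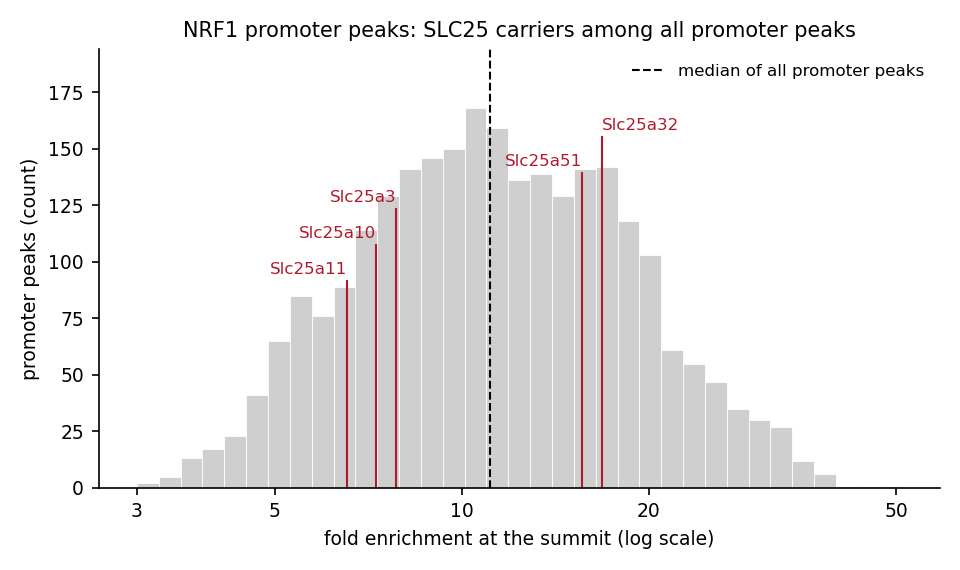
Number of NRF1 promoter peaks by fold enrichment at the summit (log axis) for all 2607 promoter peaks (grey bars), with the 5 carrier peaks as red lines whose heights only separate the labels. Slc25a11, Slc25a10 and Slc25a3 lie between 6.53 and 7.84, left of the median of 11.1 (dashed), and Slc25a51 and Slc25a32 lie to its right at 15.6 and 16.8.

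The carrier summits sat close to the starts. They lay from 131 bp before to 50 bp after the nearest start, well inside the promoter window, and the nearest summit of any carrier gene outside the window was 2531 bp before the start of Slc25a45. Of the carrier summits 3 of 5 lay after the start, compared with 596 of 2607 promoter summits over all genes. The median position was 27 bp after the start for the carriers and 46 bp before it for all promoter peaks, for which the quartiles were 106.5 bp and 4 bp before the start. Both comparisons rest on 5 carrier peaks and have no interval, so no difference in position is read from them.

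**Figure D2:**
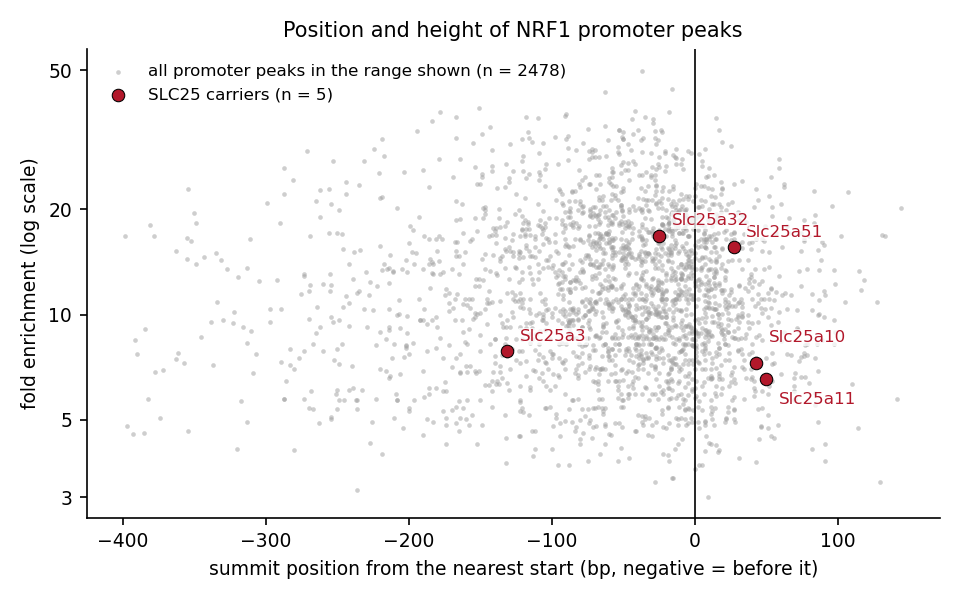
Fold enrichment (log axis) against the position of the summit from the nearest start in bp for promoter peaks within the plotted range (grey) and the 5 carrier peaks (red). Slc25a51, Slc25a10 and Slc25a11 lie 27 to 50 bp after the start, Slc25a32 lies 25 bp before it, and Slc25a3 lies 131 bp before it.

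In 2 of the 5 cases the same summit also fell in the promoter of a neighbouring gene read in the opposite direction. The Slc25a32 peak was shared with Dcaf13, a gene for a factor of ribosome assembly, whose start is 158 bp from that of Slc25a32. The summit was 25 bp from the Slc25a32 start and 133 bp from the Dcaf13 start. The Slc25a11 peak was shared with Rnf167, a ubiquitin ligase gene, whose start is 196 bp away, and its summit was 50 bp from the Slc25a11 start and 246 bp from the Rnf167 start. Both summits were nearer to the carrier, but the list gives no direction, and occupancy for either gene of a pair cannot be told apart. Over all promoter peaks of protein-coding genes, 12.1% (308 of 2556) were shared by 2 or more such genes. The other 3 carriers had no coding neighbour whose promoter held the summit. The nearest start of another coding gene was 7200 bp from that of Slc25a10, where it belonged to Mrpl12, a gene for a mitochondrial ribosomal protein, and farther away for Slc25a3 and Slc25a51.

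By role, the peaks were at 1 of 1 phosphate carrier, 2 of 4 carboxylate carriers and 2 of 8 carriers of cofactors and nucleotides, against 13.4% of all protein-coding genes. The Wilson 95% intervals ran from 20.7% upwards, from 15.0 to 85.0% and from 7.15 to 59.1%. The first and second lie above the share of all genes but rest on 1 and 4 genes among 9 roles drawn up with earlier results known, so no pattern by role is read from them. Among the carboxylate carriers, Slc25a1, which exports citrate, and Slc25a21, which carries oxoadipate and oxoglutarate, had no promoter peak. Among the cofactor and nucleotide carriers the 6 without a peak were Slc25a16 and Slc25a42, linked to coenzyme A, the peroxisomal Slc25a17, the S-adenosylmethionine carrier Slc25a26, and the pyrimidine nucleotide carriers Slc25a33 and Slc25a36.

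The 7 carriers of adenine nucleotides had 0 promoter peaks, and the upper bound of the Wilson 95% interval, 35.4%, is above the 13.4% of all genes. The other 5 roles had 0 peaks as well, with upper bounds from 29.9% for the roles of 9 genes to 79.3% for the role of 1, so none of these counts could be told apart from the share of all genes. The adenine nucleotide carriers are Slc25a4, the ADP/ATP carrier of muscle and heart, Slc25a5, its form in dividing cells, Slc25a31, its form in testis, and the ATP-Mg/phosphate carriers Slc25a23, Slc25a24, Slc25a25 and Slc25a41. The summit nearest to Slc25a4 was 47404 bp away in the promoter of Cfap97, and that nearest to Slc25a5 was 107901 bp away. A promoter without a called peak can be unoccupied or occupied below the threshold, and these cannot be told apart without the depth of the libraries, which is unknown.

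The 9 amino acid carriers, with 0 peaks, comprise Slc25a12 and Slc25a13, which exchange aspartate and glutamate, Slc25a18 and Slc25a22 for glutamate, Slc25a2 and Slc25a15 for ornithine, Slc25a29 for basic amino acids, Slc25a38 for glycine and Slc25a44 for branched-chain amino acids. Slc25a12 serves the malate-aspartate shuttle along with Slc25a11, and its nearest summit was 312167 bp away. The acylcarnitine carrier Slc25a20, which brings in fatty acids for oxidation, had its nearest summit 29931 bp away, in the promoter of Prkar2a.

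The 4 carriers of iron and glutathione, Slc25a28, Slc25a37, Slc25a39 and Slc25a40, had no promoter peak. The same was true of the 6 uncoupling proteins and relatives, Ucp1, Ucp2, Ucp3, Slc25a14, Slc25a27 and Slc25a30. Ucp1 makes heat in brown fat, and Ucp3 is the form best known from skeletal muscle. The summit nearest to Ucp3 was 100872 bp away and that nearest to Ucp2 121239 bp away, and both were 1 summit, in the shared promoter of C2cd3 and Ppme1. The last 9 genes, Slc25a34, Slc25a35, Slc25a43, Slc25a45, Slc25a46, Slc25a47, Slc25a48, Slc25a53 and Slc25a54, whose substrates are other or not assigned, had none either.

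The 44 carriers without a promoter peak were set beside the 18192 protein-coding genes without one. The nearest summit was a median of 103214 bp away, from 2531 bp for Slc25a45 to 2863243 bp for Slc25a40, and the median over all such genes was 186975 bp. It was over 100000 bp away for 23 of the 44 carriers (52.3%, Wilson 95% interval 37.9 to 66.2%) and for 64.3% of all such genes, a share inside the interval. The nearest summit lay in the promoter of another gene for 41 of the 44 carriers (93.2%, Wilson 95% interval 81.8 to 97.7%) and for 81.7% of all such genes, a share just below the interval. Some neighbouring carriers had the same nearest summit, namely Slc25a5 and Slc25a43, Slc25a23 and Slc25a41, Slc25a29 and Slc25a47, and Ucp2 and Ucp3. The intervals count such genes as separate, so no difference from all genes is read from this share. Of the whole list, 2607 of 3226 peaks were promoter peaks. With a limit of 10000 bp the carriers with a summit became 8 of 49 (16.3%), against 17.8% of all protein-coding genes. The 3 genes so added each had a summit that was not at their own start. The summit near Slc25a45 (peak at chr19:5875195-5875440, fold enrichment 10.0, −log10 q 19.1) lay in the promoter of Frmd8. The summit 5548 bp before Slc25a2 (fold enrichment 11.5, −log10 q 19.5) lay in the promoter of Taf7, a gene for a subunit of the general transcription factor TFIID. The summit 6207 bp after the start of Slc25a1 (peak at chr16:17921920-17922117, fold enrichment 11.5, −log10 q 21.6) lay past the end of the gene, between genes.

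**Figure D3:**
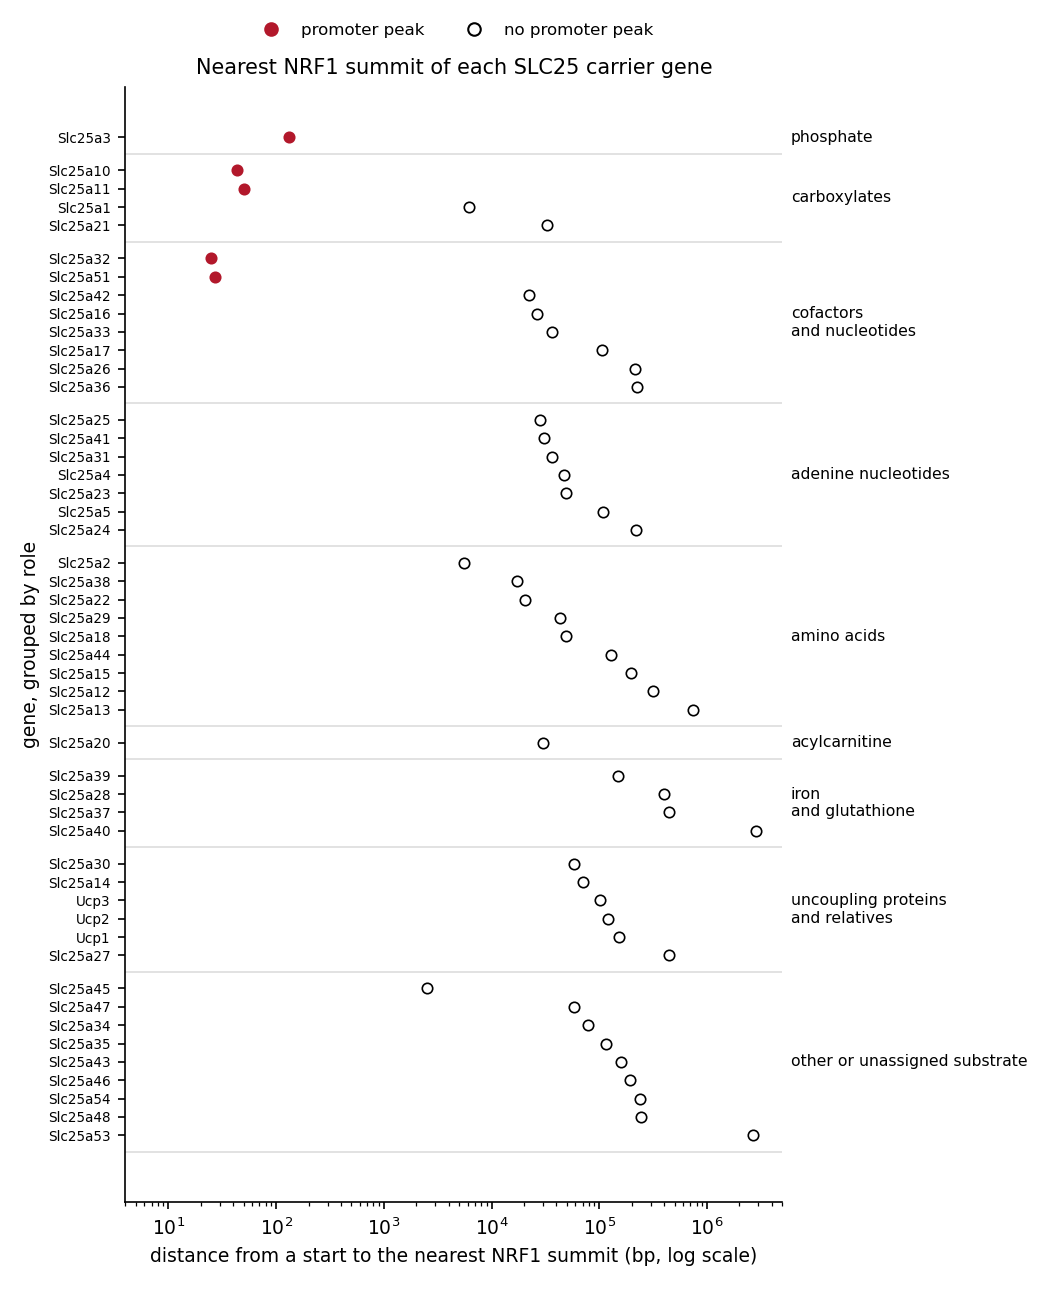
Distance in bp (log axis) from a start of each of the 49 carrier genes to the nearest NRF1 summit, grouped by role, with filled points for genes with a promoter peak and open points for the others. The 5 filled points lie at 25 to 131 bp, Slc25a45, Slc25a2 and Slc25a1 follow at 2531, 5548 and 6207 bp, and the remaining 41 lie beyond 10000 bp.

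Close relatives among the carriers were set side by side in 13 sets, for example Slc25a4 with Slc25a5 and Slc25a31, or Slc25a39 with Slc25a40. Their 31 genes held 0 promoter peaks, against a share of 13.4% over all protein-coding genes. Slc25a10 and Slc25a11, which both carry dicarboxylates and both had a peak, were in no set, so the count rests on which relatives were put together and nothing is read from it.

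The CpG content of carrier promoters was compared with that of all genes. A promoter was called CpG-rich when the sequence within 200 bp of a start had a GC content of at least 55% and a ratio of observed to expected CpG of at least 0.65, which was so for 35 of 49 carriers (71.4%, Wilson 95% interval 57.6 to 82.2%) and for 49.5% of all protein-coding genes. The share of all genes lay below the interval of the carriers, but this difference depended on the bound. With a ratio of at least 0.75 the carriers numbered 21 of 49 (42.9%, Wilson 95% interval 30.02 to 56.7%), against 40.4% of all genes. With 500 bp on either side of the start they numbered 23 of 49 (46.9%, Wilson 95% interval 33.7 to 60.6%), against 40.5% of all genes. Under both alternatives the interval contains the share of all genes. Of the 35 CpG-rich carriers 5 had a peak (14.3%, Wilson 95% interval 6.26 to 29.4%), against 24.3% of all CpG-rich genes. That interval contains the share of all CpG-rich genes. The median CpG ratio was 0.961 for the 5 carriers with a peak and 0.722 for the 44 without, and over all protein-coding genes it was 0.898 with a peak and 0.601 without.

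**Figure D4:**
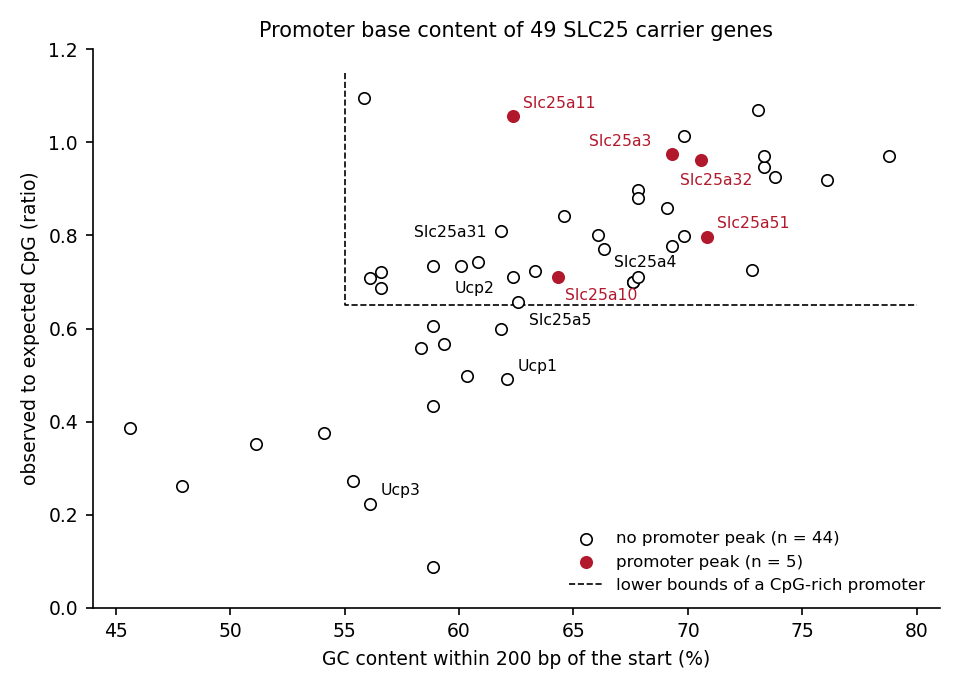
Ratio of observed to expected CpG against GC content (%) within 200 bp of the start for the 49 carrier genes, filled where the promoter had a peak, with dashed lines at the lower bounds of a CpG-rich promoter (55% and 0.65). The 5 genes with a peak lie inside these bounds among 30 genes without one, and Ucp1 and Ucp3 lie outside them.

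Carriers without a peak were on both sides of this bound. Slc25a4 had a CpG-rich promoter, with a GC content of 66.3% and a CpG ratio of 0.772, and so did Slc25a5, with 62.6% and 0.658. Ucp3, at 56.1% and 0.224, did not. Hence the absence of a called peak was found at carrier promoters of either kind.

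Copies of the motif were then counted at the starts of the carriers, with or without a peak. Within 200 bp of a start, a copy with at most 1 mismatch was present at 3 of 49 carriers (6.12%, Wilson 95% interval 2.10 to 16.5%), namely Slc25a31, Slc25a33 and Slc25a51, against 10.3% of all protein-coding genes, a share inside that interval. The copy of Slc25a3 lay just outside that distance from the start of the known RefSeq transcripts used here. It lay inside that distance from starts of predicted RefSeq or GENCODE transcripts, so the count and class of Slc25a3 depend on the annotation. An exact copy was present in the promoter of 0 of the 49 carriers and of 1.75% of all genes (368 of 21000), so the count of 0 does not set the carriers apart. Over all genes the share with a promoter peak followed the match, at 87.7% with an exact copy, 75.7% with 1 mismatch, 17.3% with 2 mismatches and 2.81% with more. Among the carriers it was 1 of 3 with 1 mismatch, 2 of 9 with 2 mismatches (22.2%) and 2 of 37 with more (5.41%, Wilson 95% interval 1.495 to 17.7%). In each of these classes the carriers' interval contained the share of all genes, except that no carrier fell in the class with an exact copy.

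**Figure D5:**
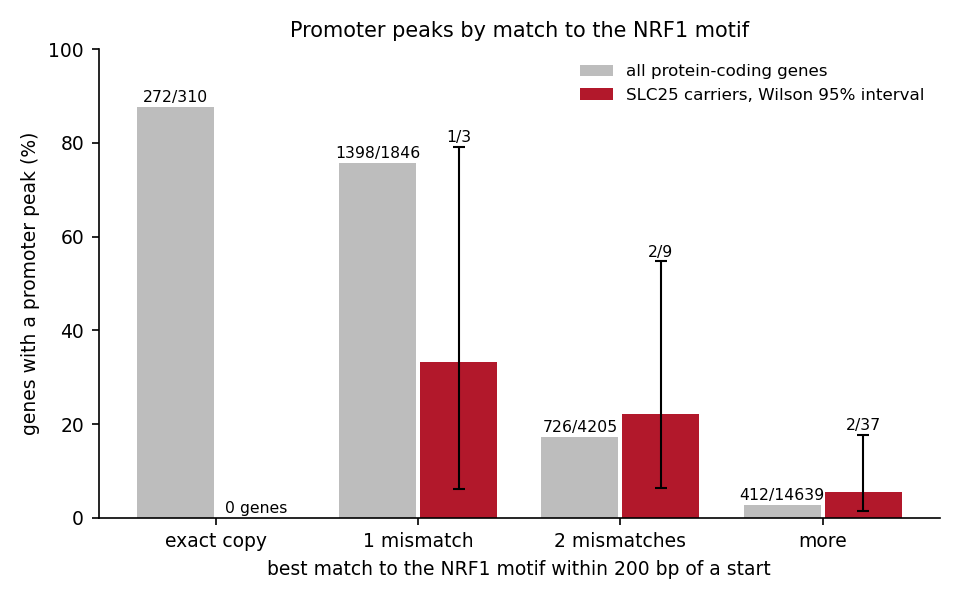
Share of genes with an NRF1 promoter peak (%) by the best match to the motif within 200 bp of a start, for all protein-coding genes (grey) and for the carriers (red, with Wilson 95% intervals). The share of all genes falls from 87.7% to 2.81%, and the carriers stand at 1 of 3, 2 of 9 and 2 of 37 genes, with none in the first class.

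The same 10 bases that lie under the peaks of Slc25a3 and Slc25a51 also lie before the start of Slc25a31, where no peak was called. Of all genes with these bases within 200 bp of a start, 83.6% (640 of 766) had a promoter peak. Slc25a31 is the ADP/ATP carrier of male germ cells and its nearest summit was 36552 bp away, in the promoter of Hspa4l. The copy is centred 40.5 bp before its start. The 120 bases before the start, chr3:40708751-40708870 on the plus strand, are shown because they hold 2 copies with 1 mismatch each, marked in capitals, and no peak.
Slc25a31: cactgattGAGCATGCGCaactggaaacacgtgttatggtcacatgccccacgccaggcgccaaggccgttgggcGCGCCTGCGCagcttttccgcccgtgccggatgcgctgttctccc

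Slc25a33, a pyrimidine nucleotide carrier, had a copy with 1 mismatch centred 108.5 bp after its start, in chr4:149774144-149774173 on the minus strand, and no promoter peak. Its nearest summit was 36085 bp away, in the promoter of Tmem201. The copy is marked in capitals.
Slc25a33: ggcctcccgcGCGCATGGGCgcgtcggcgg

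By contrast, Slc25a4 had no copy with at most 1 mismatch in its promoter, the best match having 2 mismatches 52.5 bp before the start. The 120 bases before its start, chr8:46211063-46211182 on the minus strand, are printed without capitals, since no copy with at most 1 mismatch was found in them. They do hold the element TGCGC, which is marked above for Slc25a32 and left unmarked here.
Slc25a4: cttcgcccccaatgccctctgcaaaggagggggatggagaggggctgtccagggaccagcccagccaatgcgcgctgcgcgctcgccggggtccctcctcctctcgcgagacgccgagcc

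Since 3 carrier peaks lacked a close copy, the 5-base element TGCGC was counted, on either strand, up to 100 bp from the summit. It was present in 5 of 5 carrier peaks, with 7 occurrences at Slc25a3, 4 at Slc25a11, 3 at Slc25a51, 2 at Slc25a10 and 1 at Slc25a32. It was also present in 96.2% of all promoter peaks and in 88.9% of the 888 promoter peaks without a copy of at most 1 mismatch. Within the same distance of the start it was present at 16 of the 44 carriers without a peak (36.4%) and at 31.2% of all protein-coding genes without one. The element is part of the motif, and each exact copy of the motif counts for it on both strands.

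Other genes for transport across the mitochondrial membranes were set beside the carriers. Of a list of 26 such genes not taken by the name rule, Mtch1 and Mtch2 among them, 7 had a promoter peak (26.9%, Wilson 95% interval 13.7 to 46.1%). The share of all protein-coding genes, 13.4%, was just below that interval. With only peaks of q at most 1e-05, or of fold enrichment at least 5, thresholds applied to this list after its values were seen, Vdac1 and Vdac2 dropped out and 5 of 26 were left (19.2%, Wilson 95% interval 8.51 to 37.9%), against 12.8% of all genes, which that interval contains. The interval of the carriers overlaps both. The 7 were Mtch2, an outer membrane relative of the carriers (fold enrichment 28.4), the channels of the outer membrane Vdac3 (23.4), Vdac2 (4.44, −log10 q 3.60) and Vdac1 (3.31, with the lowest −log10 q of the 7, 1.68), the transporter Abcb10 (17.2), the sideroflexin Sfxn2 (15.8) and Smdt1, a subunit of the calcium uniporter (12.4). Their median was 15.8, and a copy with at most 1 mismatch lay within 100 bp of the summit in 4 of 7. Mpc1 and Mpc2, the pyruvate carrier, and Mcu, the pore of the calcium uniporter, had no promoter peak.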

How the data were processed

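NRF1 ChIP-seq of wild-type mouse skeletal muscle was analysed from 1 deposited list of narrow peaks. The authors mapped single-end reads to mm10 with Bowtie, kept uniquely mapped reads, removed reads in blacklisted regions (the list they name is for a human build) and called peaks with MACS2 against input DNA, naming its broad option. Pooling of libraries was not stated. For each peak the authors deposited a fold enrichment (a ratio), p-values and q-values as −log10, a score equal to the whole part of 10 times the −log10 q, and the summit. Unique mapping lowers signal in repeats, and read depth is unknown.

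From these, summits were assigned to starts of known RefSeq transcripts (GRCm38.p6), and motif copies and CpG content were read from the reference with pysam 0.24.0 and numpy 2.4.6 in Python 3.11.15. Steps were tested on simulated data. Each carrier with a promoter peak is named with values, and carriers without one are named by role, with values where a summit lay within 10000 bp or a motif copy lay in the promoter. Slc25a4, Slc25a5, Slc25a12, Slc25a20, Slc25a33, Slc25a40, Ucp2 and Ucp3 were given values as well. Members and lists were chosen with earlier results of these data known. A gene that meets the rule is not reported here and is in no count of carriers. No test between groups was possible, and shares are set beside those of all genes. Other windows, thresholds and annotations were tried.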

Additional observations from a re-analysis of the deposited data

How the results depend on the processing

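The same 5 carriers had a promoter peak, with a median fold enrichment of 7.84 and a motif copy in 2 peaks, for promoters of 2000 bp before to 500 bp after the start or 500 bp on either side, for peaks with q of at most 1e-05 or fold enrichment of at least 5, for any overlap in place of the summit, and with predicted RefSeq transcripts added. The same was found with GENCODE M21 basic transcripts, an alternative chosen after seeing the data. Over all genes the count with a promoter peak ranged from 2680 to 3089. Other transport genes with a peak went from 7 to 5 of 26 under either stricter threshold, also chosen after seeing the data. Of 28 alternative values 23 stayed within 1.5 times the value reported and 5 moved further. Most of the 23 follow from the same 5 peaks being kept, which fixes their median fold enrichment and their number of motif copies. All 5 carrier peaks were also well beyond the stricter limits on q and fold enrichment, which could not remove them. Nothing is therefore read from the count of 23. Peaks with the motif were 0 of 5 with no mismatch, 4 of 5 with at most 2 mismatches and 1 of 5 within 50 bp of the summit. Of all 2607 promoter peaks, 285 had an exact copy (10.9%), and only 235 had a best match of 3 or more mismatches. No share of all promoter peaks is given for the limit of 50 bp, so nothing about the carriers is read from these counts. CpG-rich carriers fell from 35 to 21 with a ratio of at least 0.75 and to 23 with 500 bp on either side of the start. Over all genes the share of CpG-rich promoters fell from 49.5% to 40.4% and 40.5%. Fewer promoters meet a stricter bound by construction, and the cause of the other shift was not tested.

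Leaving out a replicate was not possible, because the single list has no values per library. No paired analysis was possible because there was 1 list of peaks, named after the library of replicate 1, and no values of the other library were used here. The depth is unknown without read counts, and a carrier promoter without a peak cannot be told apart from one with signal below the threshold. Intervals cover counting error over genes only.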
